A study of Macaca fascicularis with 2 samples.

Results

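The hedgehog ligands, receptors and GLI factors were taken as 9 named genes, which are *SHH*, *IHH*, *DHH*, *SMO*, *PTCH1*, *GLI1*, *GLI2*, *GLI3* and *HHIP*. Of these, 8 had a row among the 21371 genes counted, and *GLI3* was not analysed here. Their reads were described in notochordal cells (NCs) and in all other cells of single-cell libraries from the nucleus pulposus (NP), the gelatinous core of the intervertebral disc, and the articular cartilage (AC) of the femoral condyle. The tissue came from male wild type cynomolgus monkeys (*Macaca fascicularis*) aged 3 years. The labelled library, WTA8, pools the AC and NP of 1 monkey with the AC of another, and its cells carry 1 of the 4 sample tags A951 to A954. A second matrix, WTA4, matches no sample label used here and may hold cells of an earlier monkey series of disc and cartilage that the study's methods describe joining to these. Its tissues and animals were not assigned, and it was used as a check. The sources used here do not pair tags with tissues, so tissue and tag cannot be told apart, and each library stands for a single sample without replicates.

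Hedgehog ligands are secreted proteins that bind the receptor PTCH1, which otherwise holds the transducer SMO inactive. Active SMO lets GLI factors switch on targets that include *GLI1*, *PTCH1* and *HHIP* themselves, so that these transcripts are commonly read as signs of a received signal. The embryonic notochord is a known source of SHH, and NCs are its remnant in the young NP.

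NCs were cells with at least 5 reads of *KRT19* and at least 5 reads of *TBXT*, an epithelial keratin and the notochordal transcription factor brachyury. In WTA8, 5653 cells with 1341305522 reads passed the limits on quality, and 310 of them were NCs, namely 67 with tag A951, 236 with A952, 5 with A953 and 2 with A954. The median depth was 186370 reads in NCs and 199072 in the 5343 other cells. WTA4 had 1347 cells with 200242500 reads, of which 138 were NCs, 62 with tag A953 and 76 with A954, and the median depth was 81906 reads in NCs against 127073 in other cells. The class was checked with further notochord genes, which did not define it and did not all follow it. *NCAM1* reached 506 rpm (pooled reads of the gene per 1000000 reads of the class) in NCs of WTA8 against 25.2 rpm in other cells, and *CDH2* 120 against 1.16 rpm. The notochord transcription factor *FOXA2* went the other way, at 0.908 rpm in NCs against 5.46 rpm in other cells, and in WTA4 at 0.636 against 4.61 rpm. *NOTO*, another, had 1 read in all NCs of WTA8, too few to read a direction. The genes *KRT8*, *KRT18*, *CD24* and *FOXA1* had no row. The other cells had 20072 rpm of the cartilage collagen *COL2A1*, against 1269 rpm in NCs, whereas *ACAN*, the cartilage proteoglycan, was at 3968 rpm in other cells and at 14440 rpm in NCs. Summed over the lists of markers of other cell types, NCs and other cells of WTA8 had 3.07 and 2.60 rpm for endothelium, 15.4 and 33.6 rpm for blood and marrow, 6.01 and 59.8 rpm for osteoblasts, and 92.9 and 35.2 rpm for smooth muscle, mainly *ACTA2* in NCs.

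*SHH* was detected mainly in NCs, and only in a part of them. In WTA8, 110 of 310 NCs (35.5%, exact 95% interval 30.2 to 41.1) had at least 1 *SHH* read and 72 (23.2%, 18.6 to 28.3) had at least 5. Among NCs, 200 had no *SHH* read, whereas 54 had 20 or more and the highest had 479, so that the reads were concentrated in a minority of the class. Of 5343 other cells, 438 (8.2%) had a read, but 373 of these had a single read and 11 (0.21%) had at least 5. All intervals in this text cover counting error only, and since the counts are of reads and not of molecules, even that error is understated.

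Both tags with many NCs held *SHH*-positive NCs. With tag A951, 16 of 67 NCs (23.9%) had a read and 9 (13.4%) had at least 5. With tag A952, 93 of 236 (39.4%) had a read and 62 (26.3%) had at least 5. The intervals of the shares with 5 reads, 6.33 to 24.0% and 20.8 to 32.4%, overlapped. Of the 5 NCs with tag A953, 1 had 9 *SHH* reads, and neither NC with tag A954 had any.

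The pooled *SHH* level was 98.7 rpm in NCs and 0.847 rpm in other cells of WTA8, a log2 ratio of 6.86. Other cells had 0.361 rpm with tag A951, 3.69 with A952, 0.377 with A953 and 0.383 with A954, so that A952 was the highest. NCs had 35.6 rpm (32.4 to 39.2) with tag A951 and 118 rpm (115 to 121) with A952. The log2 ratio was 6.63 within tag A951 and 5.00 within A952, so that the tag with the higher level in NCs had the lower ratio. Over these tags together the log2 ratio was 5.72. In WTA4, 26 of 138 NCs (18.8%) had a read and 20 (14.5%) had at least 5, and the log2 ratio was 5.45. There too the *SHH*-positive NCs were spread over both tags with NCs, at 11 of 62 and 9 of 76 cells with 5 or more reads. When every cell was thinned to 50000 reads, which left out 11 NCs and 196 other cells of WTA8, *SHH* was found in 28.1% of NCs and 1.94% of other cells.

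**Figure D1:**
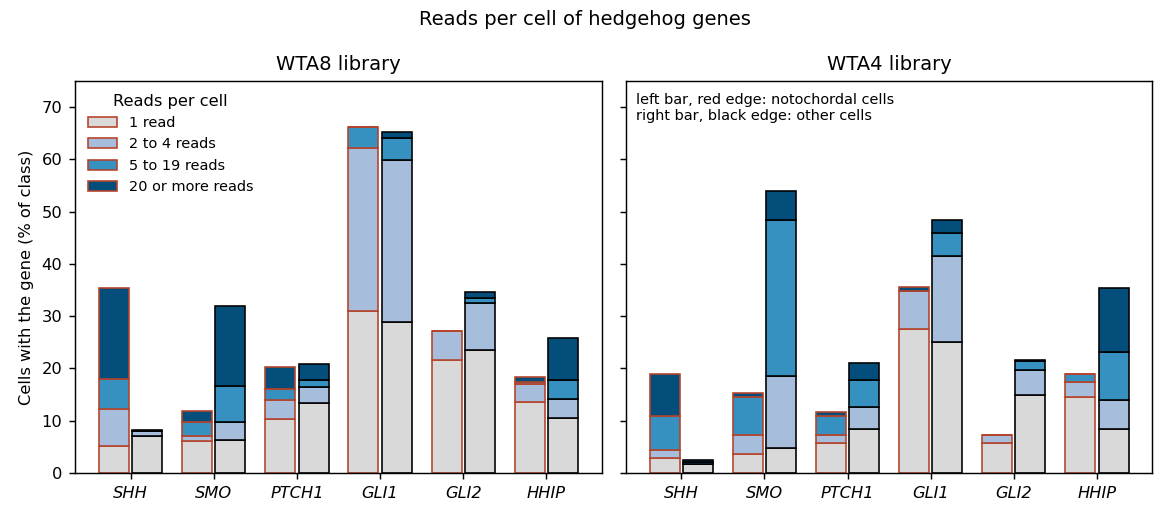
Share of NCs (left bar of each pair, red edge) and other cells (right bar, black edge) in which each gene had 1, 2 to 4, 5 to 19 or 20 or more reads, in WTA8 (left) and WTA4 (right). *SHH* bars are tall and dark in NCs (54 of 310 NCs of WTA8 with 20 or more reads), *SMO* and *HHIP* bars are darker in other cells, and *GLI1* bars, made mostly of 1 to 4 reads, reach 66.1% and 65.3% in WTA8.

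*SHH* reads outside the NC class fell into 2 kinds. Cells with 1 to 4 reads were found at like shares under every tag, and the share with at least 1 read ran from 7.33% with A951 to 8.82% with A954, including the tags with 5 and 2 NCs. Such low reads amounted to 75.3 for every 1000 *SHH* reads in NCs, and in WTA4 to 25.9. The rates of *KRT19* and *TBXT* cannot be set beside these, because both genes define the class. Because cells with 1 to 4 *SHH* reads occurred under every tag of WTA8, a single read was not taken as expression. Shares at 1 read are given below beside those at 5 reads. The 11 other cells with at least 5 *SHH* reads, which had 6 to 188, in contrast, all had tag A952, the tag with most NCs, and all 11 had at least 5 reads of *KRT19* or *TBXT* but not of both. In WTA4, 6 of 8 such cells did, and all 8 had tag A953 or A954. With NCs defined by 5 reads of either gene, WTA8 had 395 NCs and the log2 ratio was 7.83 for *SHH*, −1.58 for *SMO* and −0.92 for *GLI2*, which is then under 2-fold.

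*IHH*, the ligand of growth plate cartilage, and *DHH* were almost absent from WTA8. No NC had an *IHH* read, where the floor of 3 cells of 310 is 0.968% with a read and the exact interval reaches 1.18%. These limits concern cells with a read and set no limit on expression. A read was found in 8 other cells, 2 of them with at least 5 reads under tags A951 and A953. *DHH* was read in 1 NC and 5 other cells. In WTA4, *IHH* was again at 0 in NCs, where the floor of 3 cells is 2.17% with a read and the exact interval reaches 2.64%. However, 51 of 1209 other cells (4.22%) had a read. At least 5 reads were found in 15 of them, namely 5, 2, 5 and 3 cells under the 4 tags in order. All 15 had at least 5 reads of *COL10A1*, the collagen of hypertrophic chondrocytes, and of *PTH1R*, the receptor for parathyroid hormone-related protein, and none had a read of *KRT19* or *TBXT*. Across all other cells of WTA4, 43.3% had 5 reads of *COL10A1* and 53.2% of *PTH1R*. In WTA8 the corresponding shares were 1.35% and 23.8%, and of its 2 cells with 5 *IHH* reads none had 5 reads of *COL10A1* and 1 had 5 of *PTH1R*. *DHH* was read in 1 NC and 2 other cells of WTA4, and in both libraries together 1 cell, an other cell of WTA8 with 10 reads, had more than a single read.

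*SMO*, the transducer, showed the opposite pattern to *SHH*. In WTA8, 37 of 310 NCs (11.9%, 8.54 to 16.1) had a read and 15 (4.84%) had at least 5, against 1704 (31.9%, 30.6 to 33.2) and 1182 (22.1%) of other cells. The pooled level was 7.95 rpm in NCs and 44.8 rpm in other cells, a log2 ratio of −2.50. Among other cells the level was even across the tags, at 48.8, 50.4, 43.2 and 42.7 rpm, and every one of these values was above the 2.46 rpm of NCs with tag A951 and the 9.45 rpm of NCs with tag A952. The log2 ratio was −4.31 within A951 and −2.42 within A952. After thinning, 6.35% of NCs and 24.6% of other cells had *SMO*. In WTA4 the shares were 15.2% and 53.9% and the log2 ratio was −1.70, with −0.79 within tag A953 and −2.70 within A954.

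*PTCH1*, the receptor and a hedgehog target, did not separate the classes in WTA8. A read was found in 20.3% of NCs and 20.9% of other cells of WTA8, and 5 reads in 6.45% (3.99 to 9.79) and 4.51% (3.97 to 5.10). The levels were 13.2 and 10.7 rpm, a log2 ratio of 0.30, but the ratio was −0.82 within tag A951 and 0.04 within A952. NCs of these tags had 6.23 and 15.4 rpm, and other cells of the 4 tags had 9.33 to 15.0 rpm, so that the classes overlapped. Leaving out A952 gave a log2 ratio of −0.89. In WTA4 the ratio was 0.03, with 0.31 within A953 and −1.90 within A954, although a smaller share of NCs (11.6%) than of other cells (21.0%) had a read.

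*GLI1*, the transcriptional activator and target of the pathway, was read in 66.1% of NCs and 65.3% of other cells of WTA8, but in 35.5% (27.6 to 44.1) and 48.5% (45.6 to 51.3) of those of WTA4. At 50000 reads per cell the shares were 27.1% and 25.4% in WTA8 and 25.7% and 27.1% in WTA4. These were mostly low counts, and 193 of the 205 positive NCs of WTA8 had 1 to 4 reads. At 5 reads or more and full depth the shares were 3.87% (2.02 to 6.66) in NCs and 5.43% (4.84 to 6.07) in other cells of WTA8, and 0.725% and 6.95% in WTA4. At 50000 reads per cell those of WTA4 were 0.917% (0.0232 to 5.01) and 2.66% (1.73 to 3.90). In WTA8 they were then 0 (up to 1.23%) and 1.09% (0.823 to 1.41), so that the intervals overlapped in both libraries. In WTA8 no NC had 20 or more reads whereas 64 other cells did. Within A952 the shares at 5 reads were in the other order, 4.24% in NCs and 3.26% in other cells. The level was 6.24 rpm in NCs against 9.36 rpm in other cells, a log2 ratio of −0.59, with −0.88 within A951 and −0.41 within A952, and it was −0.86 in WTA4. NCs of these tags had 5.16 and 6.55 rpm, under the 8.70 to 10.7 rpm of other cells of the 4 tags. The 2 NCs with tag A954 gave a log2 ratio of 0.39. *GLI2*, which carries out much of the primary response, had no NC with 5 or more reads in either library, against 118 other cells (2.21%) in WTA8 and 23 (1.90%) in WTA4. The exact intervals of the NC shares reached 1.18% in WTA8 and 2.64% in WTA4, the latter above the share of other cells. At 50000 reads per cell they reached 1.23% and 3.33%, against 1.22% and 0.744% of other cells. The log2 ratio of *GLI2* was −1.84 in WTA8, −2.02 and −1.78 within A951 and A952, and −1.87 in WTA4. The levels, 1.48 and 1.60 rpm in NCs of those tags and 5.26 to 6.00 rpm in other cells of the 4 tags, did not overlap.

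*HHIP*, a target whose membrane-bound product binds the ligands and damps the signal, had the widest range of log2 ratios between tags of the 6 members compared in WTA8. In WTA8, 4 NCs (1.29%) and 621 other cells (11.6%) had at least 5 reads, and the levels were 5.87 and 28.6 rpm, a log2 ratio of −2.28. The ratio was −2.67 within A951 and −4.41 within A952, where no NC had 5 reads, and −3.87 in WTA4. The levels were 3.93 and 0.993 rpm in NCs of A951 and A952, and 25.1, 21.2, 46.6 and 21.6 rpm in other cells of A951 to A954. Within A953, however, the log2 ratio was 1.45, and 2 of the 5 NCs with that tag held 185 and 102 *HHIP* reads, the other 3 having 0 or 1. These 2 cells had 559108 and 494207 reads in all, against a median of 186370 for NCs, but the deepest NC of A953, with 867991 reads, had no *HHIP* read, and the 5 NCs of A953 together had 17131 rpm of superficial cartilage markers (mainly *PRG4*), as against 554 rpm in NCs of A952 and 17892 rpm in other cells of A953. Whether these columns hold more than 1 cell was not tested. Without A953 the log2 ratio of *HHIP* was −3.84, and over tags A951 and A952 alone it was −3.90. Without A952, which holds most NCs, it was −0.38, under 2-fold.

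**Figure D2:**
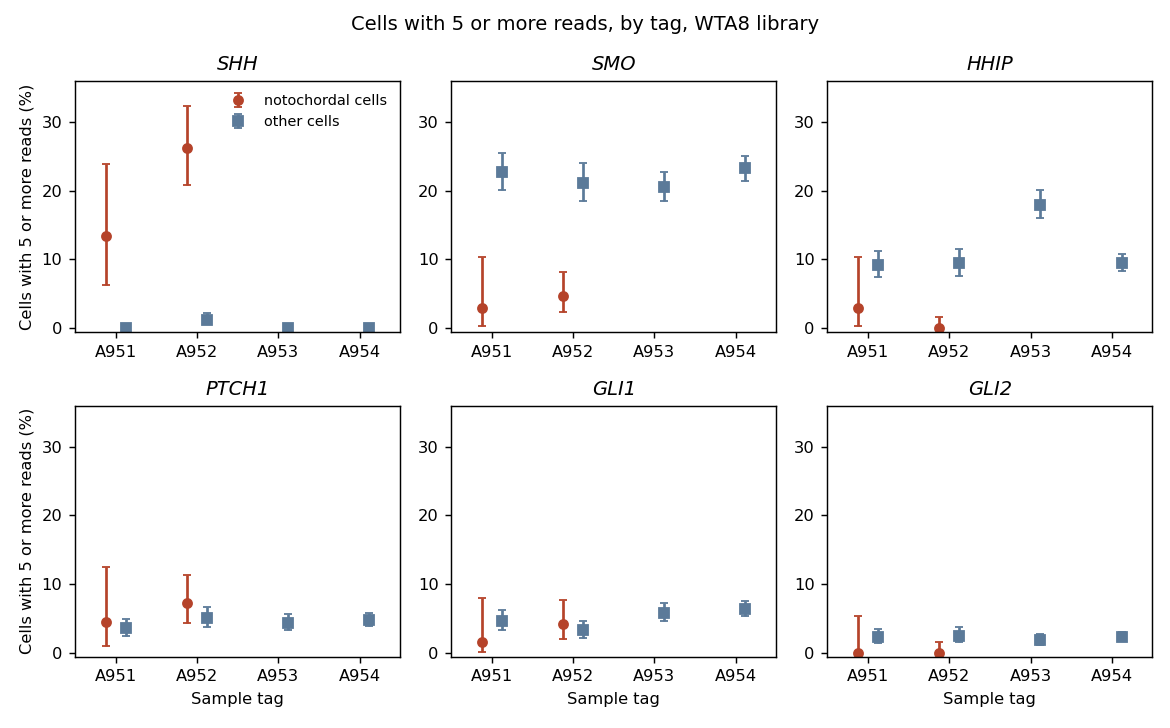
Share of cells with 5 or more reads of each gene (y axis, percent) under each sample tag (x axis) in WTA8, for NCs (circles, tags with at least 10 NCs) and other cells (squares), with exact 95% binomial intervals. *SHH* lies at 13.4% and 26.3% in NCs and at 0 to 1.24% in other cells, *SMO* at 2.99% and 4.66% in NCs and at 20.6% or more in other cells, and *HHIP* of other cells stands at 18.0% under A953 against 9.16 to 9.52% under the remaining tags.

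Levels were compared for the 6 members that at least 1 class carried in 5% or more of its cells. Of these, 1 (*SHH*) had a level at least 2-fold higher in NCs, and 3 (*SMO*, *GLI2* and *HHIP*) a level at least 2-fold lower. Over all 11524 genes compared in the same way, 25.1% were higher and 11.9% lower by that measure. The median log2 ratio was −1.21 for the 6 members and 0.30 for all genes. Centred on the median of all genes, the ratios were 6.56 for *SHH*, 0.0012 for *PTCH1*, −0.89 for *GLI1*, −2.14 for *GLI2*, −2.59 for *HHIP* and −2.80 for *SMO*. In WTA4 the counts were again 1 and 3 of 6, for the same members, beside 22% and 18% of 11425 genes, and the medians were −1.28 and 0.15. These counts describe the members and are not a test.

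The wider pathway was described with a list of 57 genes in 6 groups, of which 50 were counted and 44 compared in WTA8. Of these, 7 were at least 2-fold higher and 9 at least 2-fold lower in NCs, beside the 25.1% and 11.9% of all genes, and their median log2 ratio was 0.21, near that of all genes. In WTA4, 42 were compared, and 8 were higher and 10 lower, beside 22% and 18% of all genes. The median there was −0.0029, against 0.15 for all genes. Of the 7 higher genes, 3 were for release of the ligand, 2 were ciliary, 1 was a co-receptor gene and 1 a target. Differences between the groups were not tested.

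The 3 highest ratios of the list in WTA8 were those of genes for the acylation, release and spread of ligands. HHAT attaches palmitate to the ligand, DISP1 is the transporter that releases it from the membrane, and SCUBE1 belongs to a family of secreted proteins that help carry it away. *DISP1* was at 503 rpm in NCs and 59.4 rpm in other cells of WTA8, a log2 ratio of 3.08, with 407 and 535 rpm in NCs of A951 and A952 and 52.7 to 72.5 rpm in other cells of the 4 tags. *HHAT* was at 168 and 25.8 rpm (2.70), with 159 and 176 rpm in NCs of those tags and 24.3 to 28.5 rpm in other cells. *SCUBE1* was at 294 and 10.1 rpm (4.87), with 432 and 267 rpm in NCs and 5.93 to 22.9 rpm in other cells. For none of the 3 genes did the levels of NCs of A951 and A952 overlap with those of other cells under any tag. The 5 NCs of A953 had 258, 61.3 and 192 rpm of *DISP1*, *HHAT* and *SCUBE1*. In WTA4 the log2 ratios were 1.73, 3.59 and 3.84, again without overlap between NCs and other cells of any tag. In this group, 3 of 5 genes compared were at least 2-fold higher and none was lower in WTA8, beside 25.1% and 11.9% of all genes. *SCUBE3* had a log2 ratio of 0.25 in WTA8 and −3.28 in WTA4.

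**Figure D3:**
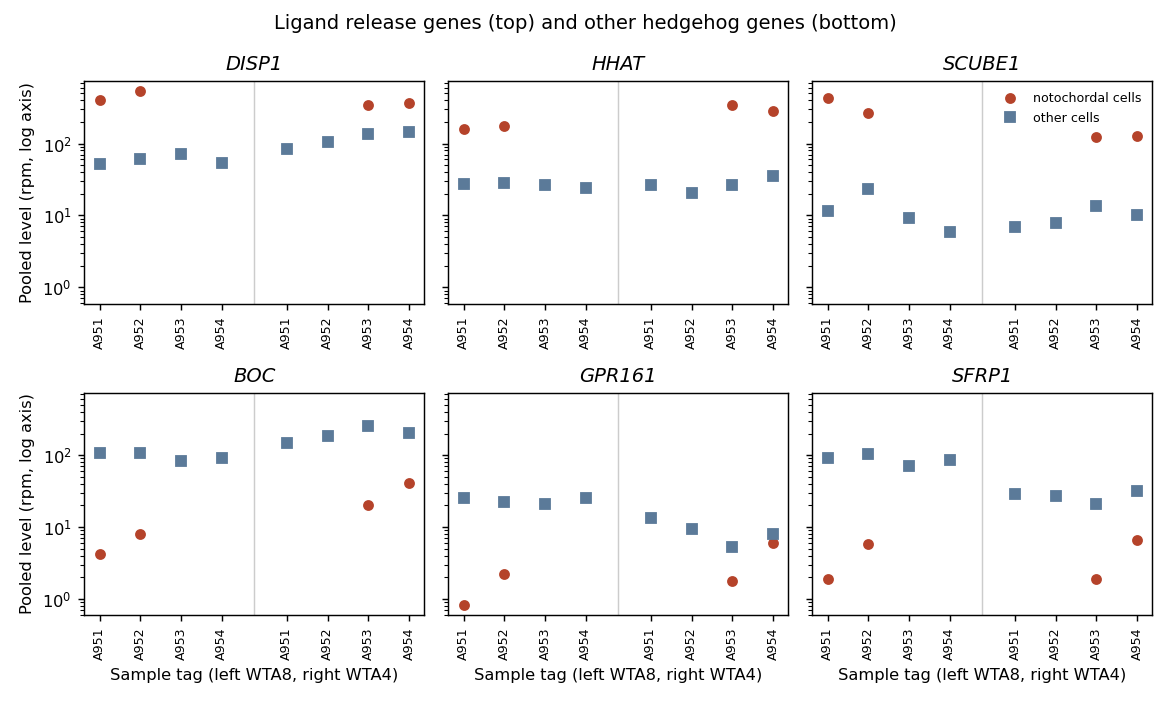
Pooled level in rpm (y axis, log scale) under each sample tag (x axis, WTA8 left and WTA4 right of the line) in NCs (circles, tags with at least 10 NCs) and other cells (squares). *DISP1*, *HHAT* and *SCUBE1* (top) are higher in NCs under every tag shown, and *BOC* and *SFRP1* (bottom) are lower, whereas *GPR161* in NCs of A954 of WTA4 lies close to the other cells.

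The 3 release genes were not limited to NCs with *SHH* reads. Of the 72 NCs of WTA8 with at least 5 *SHH* reads, 65 (90.3%) had 5 reads of *DISP1*, 37 (51.4%) of *HHAT* and 45 (62.5%) of *SCUBE1*. Of the 200 NCs without an *SHH* read, 172 (86.0%), 83 (41.5%) and 127 (63.5%) did, and the exact intervals of each gene overlapped between NCs with and without *SHH*. All 3 genes together were found in 90 NCs (29.0%, 24.0 to 34.4) and in 33 other cells (0.618%, 0.426 to 0.866), and in WTA4 in 39 NCs (28.3%) and 25 other cells (2.07%).

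Among co-receptors, *BOC*, which binds ligand together with PTCH1, had a log2 ratio of −3.40 in WTA8 and −2.58 in WTA4. Its level was 4.26 and 8.01 rpm in NCs of A951 and A952, against 84.2 to 109 rpm in other cells, but 57.3 rpm in the 5 NCs of A953, a log2 ratio of −0.56 within that tag. *CDON*, its relative, was at −0.42 and 0.55, although within A953 and A954 of WTA4 it was at 3.06 and 1.73, and *GPC3*, a glypican that competes for the ligand, was at 2.38 in WTA8 but −2.64 in WTA4, so that its direction turned between the libraries. Of the 6 compared in this group, 1 was higher and 1 lower in WTA8, near the 25.1% and 11.9% of all genes.

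Among the 10 inhibitors and factors of GLI processing, none was higher and 2 were lower in WTA8, beside 25.1% and 11.9% of all genes. *GPR161*, a ciliary receptor that keeps the pathway off, was at −3.67 and, in WTA4, −1.36. *GRK2*, a kinase acting on SMO, was at −1.22 and −0.98, but at −0.18 within A951 of WTA8. *SUFU*, the main restraint on GLI proteins, was at 0.06 and −0.12. None of 5 positive factors at SMO passed 2-fold in WTA8, and 1 of 6 did in WTA4, *ARRB2* at 1.44, beside 22% of all genes higher there. Of the 6 ciliary genes, *IFT80* (1.08 and 1.11) and *DYNC2H1* (1.03 and 1.05), both parts of transport within the cilium, were the ones past 2-fold in WTA8, *DYNC2H1* reaching 0.63 and 0.87 within A951 and A952. In WTA4, 4 of the 6 were at least 2-fold higher, beside 22% of all genes, with *IFT88* at 1.80 and *IFT172* at 1.24, against 0.29 and 0.57 in WTA8.

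Of 12 known target genes compared in WTA8, 6 were at least 2-fold lower in NCs and 1 higher, and in WTA4 6 of 10 were lower and none higher, beside 11.9% lower and 25.1% higher of all genes in WTA8 and 18% and 22% in WTA4. The 6 were not the same genes in both libraries, and *BMP4*, a growth factor among them in both, was at −1.05 in WTA8 but at 0.33 within A952. *SFRP1*, a secreted WNT antagonist, was at −4.09 and −2.67, with 1.88 and 5.86 rpm in NCs of A951 and A952 against 69.7 to 104 rpm in other cells. *CCND1*, the G1 cyclin, was at −1.86 and −2.49, and *FOXA2*, a floor plate and notochord transcription factor, at −2.59 and −2.86. *HSD11B1*, a glucocorticoid-activating enzyme, was at −2.89 in WTA8 on 17 reads in NCs, with like shares of positive cells (5.16% and 5.18%), and had 1 read in NCs of WTA4. *WNT5A* was the 1 higher target, at 1.36 in WTA8, but at −3.28 in WTA4 and with under 1 rpm in both classes of WTA8. Many of these genes answer to other pathways as well, and their levels alone do not measure hedgehog input.

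**Figure D4:**
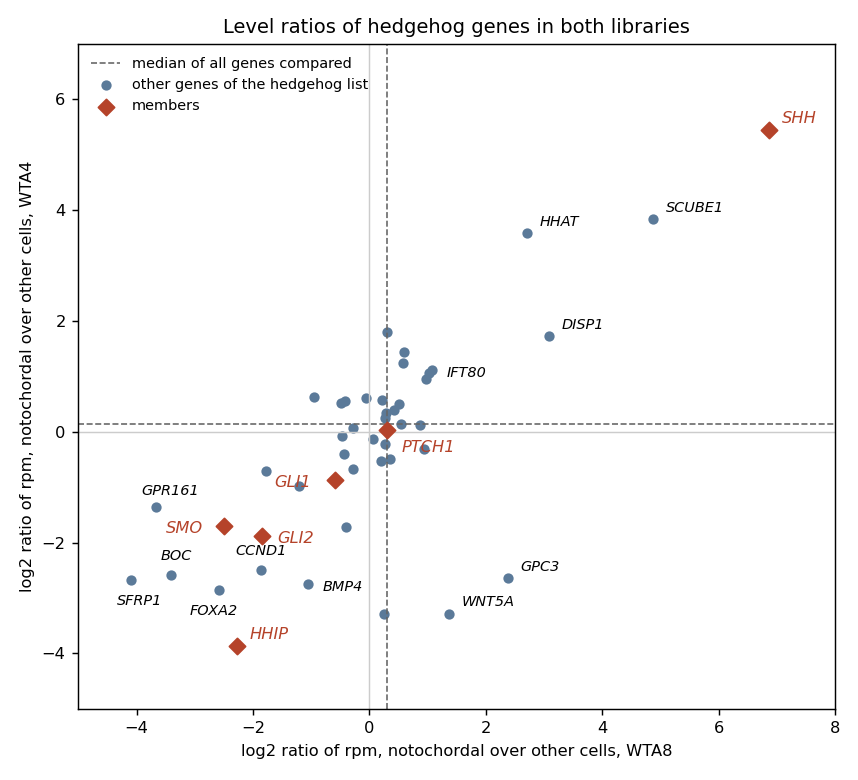
Log2 ratio of the pooled level in NCs over other cells in WTA8 (x axis) and WTA4 (y axis) for the 6 members compared (diamonds) and for the other hedgehog genes compared in both libraries (circles). Dashed lines mark the median of all genes, 0.30 and 0.15, and *SHH* (6.86 and 5.45) stands with *SCUBE1*, *HHAT* and *DISP1* at the upper right, while *SMO*, *GLI2* and *HHIP* stand with *BOC*, *SFRP1* and *GPR161* at the lower left.

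At 5 reads, few *SHH* cells of WTA8 also had a member of the receiving side, and in WTA4 more did. Of the 72 NCs with 5 *SHH* reads in WTA8, 62 had none of *SMO*, *PTCH1*, *GLI1*, *GLI2* and *HHIP* at 5 reads, 9 had 1 of them and 1 had 2. The share, 86.1%, was also that of all NCs of WTA8 (267 of 310). At 1 read, *GLI1* was found in 50 of the 72 *SHH* cells (69.4%) and in 128 of the 200 NCs without *SHH* (64.0%). The numbers of joint cells in WTA8, beside the product of the shares, were 3 for *SHH* with *SMO* (3.48 from the product), 3 with *PTCH1* (4.65) and 5 with *GLI1* (2.79), and none with *HHIP* (0.929). In WTA4, 12 of 20 *SHH* cells (60.0%) had none of the 5 genes against 118 of all 138 NCs (85.5%), and 5 had *PTCH1* where the product gave 0.870. After thinning, at 1 read or more, *SHH* with *PTCH1* counted 6 NCs of WTA4 (product 1.92) and 8 of WTA8 (product 9.55).

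Other cells carried more of the receiving genes. Of 5343 other cells in WTA8, 3355 (62.8%) had none at 5 reads, 1593 (29.8%) had 1, 331 had 2, 59 had 3 and 5 had 4. Pairs of receiving genes met more often than the product of the shares, for example *SMO* with *GLI1* in 106 cells (64.2), *PTCH1* with *GLI1* in 24 (13.1) and *GLI1* with *HHIP* in 59 (33.7). At 50000 reads per cell, *SMO* with *GLI1* counted 13 cells, where 735 of 5147 other cells had *SMO* and 56 had *GLI1* at 5 reads. *PTCH1* with *GLI1* counted 2 cells (product 1.52) and *GLI1* with *HHIP* 6 (4.20). These counts were too few to say whether an excess remained for any of the 3 pairs. In WTA4, thinned in the same way, the 3 pairs counted 3 cells (3.13), 4 (1.12) and 9 (4.09).

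**Figure D5:**
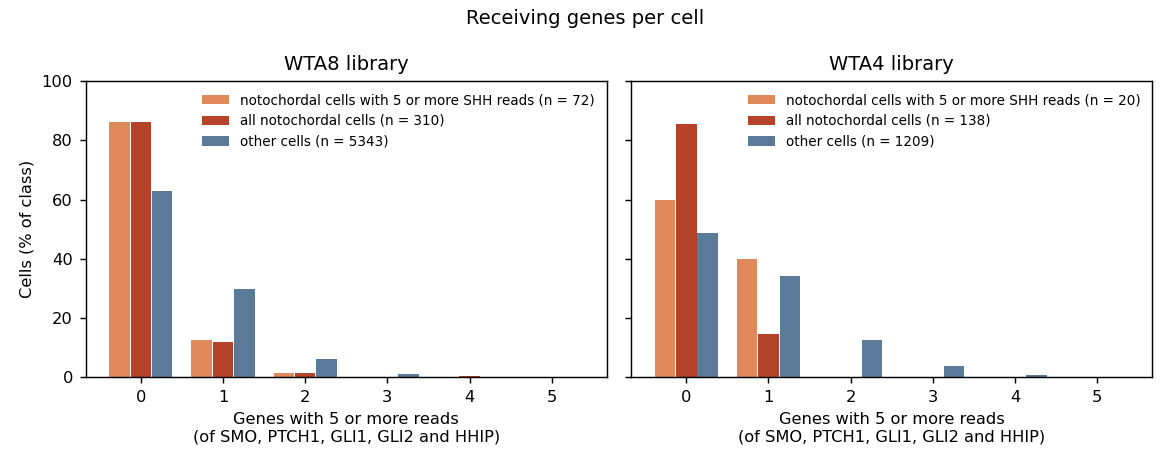
Share of cells (y axis, percent) with 0 to 5 of the genes *SMO*, *PTCH1*, *GLI1*, *GLI2* and *HHIP* at 5 or more reads (x axis), in NCs with 5 or more *SHH* reads, all NCs and other cells, for WTA8 (left) and WTA4 (right). In WTA8 the bars at 0 are 86.1% for both groups of NCs and 62.8% for other cells, and in WTA4 they are 60% for the 20 *SHH* cells, 85.5% for all NCs and 48.6% for other cells.

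NCs with *SHH* were deeper than those without, with a median of 226388 reads in the 72 NCs with at least 5 *SHH* reads and 165790 in the 200 with none, so that their genes were set side by side after thinning. At 50000 reads per cell, *GLI1* was read in 25.0% (16.2 to 35.6) of the 84 *SHH*-positive NCs and 27.9% of the 215 without. *PTCH1* was read in 9.52% (4.20 to 17.9) and 12.1% (8.05 to 17.2), and *SMO* in 9.52% (4.20 to 17.9) and 5.12% (2.58 to 8.97), so that the intervals overlapped for each gene. In WTA4, *PTCH1* was read in 6 of 19 *SHH*-positive NCs (31.6%, 12.6 to 56.6) and in 5 of 90 without (5.56%, 1.83 to 12.5), and *GLI1* in 47.4% (24.4 to 71.1) and 21.1% (13.2 to 31.0), both in the other order than in WTA8.

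Among the genes most like *SHH* across the 310 NCs of WTA8, by Pearson correlation of log2(rpm + 1), were *F3* (r = 0.35), *CNN2* (0.32), *PHLDA2* (0.32) and *GPCPD1* (0.31). Across the 138 NCs of WTA4 the same genes had r of 0.37, 0.23, 0.15 and 0.13, so that *F3*, which encodes tissue factor, was alike in both. For *HHIP* in NCs, *OGN* (0.32) and *PRG4* (0.31) passed 0.3 in WTA8 but were at 0.10 and 0.059 in WTA4. For the remaining members no gene reached 0.3 in NCs or in other cells of WTA8. In NCs of WTA4 the highest gene was *IL1RL2* for *SHH* (0.41, and 0.21 in WTA8), *TMEM132D* for *SMO* (0.37 and −0.043), *DNAJC17* for *PTCH1* (0.37 and 0.12) and *ELF4* for *HHIP* (0.36 and −0.027), and in other cells *COL2A1* for *SMO* (0.30 and 0.096). The points of each correlation share 1 library and its depth, and many hold 0 reads, so that these values are descriptions.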

How the data were processed

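Cells were captured on barcoded beads, marked with surface tags and amplified by TAS-seq. Per the submitters' processing notes and the study's methods, the authors aligned reads with HISAT2 2.2.1 and assigned them to whole genes, by strand and with multi-mapping reads allowed, with featureCounts 2.0.2. The matrices that the authors deposited hold raw counts, in whole reads and without molecular identifiers, so PCR copies are counted. The genome build is not given in the sources used here, and no coordinates or sequences are printed.

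A cell was kept if it had 1 tag, between 200 and 9000 genes with a read, and less than 5% of reads from 13 mitochondrial genes, and 49 columns of WTA8 without 1 clear tag were not used. Doublets within a tag were not sought. The libraries shared 15 barcodes and no identical column. Levels are reads pooled over a class, which cannot tell apart fewer molecules per cell and fewer positive cells. In ratios, a class under 3 reads was set to 3. Shares have exact binomial (Clopper-Pearson) 95% intervals. Thinning drew 50000 reads per cell without replacement. No test was made, because each library is 1 sample. Named list genes were those past 2-fold with the 5 highest or lowest ratios, with others named afterwards. Correlated genes were those of the 5 highest at r of at least 0.3, among genes detected in at least 10% of the class. Some genes of these lists are not reported here. Python 3.11.15, numpy 2.4.6, scipy 1.17.1 and matplotlib 3.10.9 were used, and the calculations were tested on simulated data. Members and gene lists were chosen with earlier results of these data known. Alternatives are described in the closing section.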

Additional observations from a re-analysis of the deposited data

Results flagged for a closer look

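Over the 4 tags, 31 shares of other cells with a member were examined in the 2 libraries for a tag that stood apart from the remaining 3, and 4 were found, where chance marks about 1 in 20. That rate does not apply to the 3 of them in which the remaining tags were all at 0, since any positive cell then stands apart. With tag A953 of WTA8, 18.0% of other cells had at least 5 *HHIP* reads, against 9.16%, 9.45% and 9.52% with the other tags. In the same cells the blood and marrow markers, mainly *CD74*, summed to 78.8 rpm against 11.9 to 20.4 rpm, and the superficial cartilage markers to 17892 rpm against 11350 to 12653 rpm, and their part in the *HHIP* share was not tested. With tag A952 of WTA8, 1.24% of other cells had at least 5 *SHH* reads, against 0 with the other tags, and these are the 11 cells with *KRT19* or *TBXT* described above. For *DHH*, 0.0464% of other cells with tag A954 of WTA8 had at least 5 reads (1 cell), and 1.22% of other cells with tag A953 of WTA4 had at least 1 read (2 cells), each against 0 elsewhere.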

How the results depend on the processing

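At 1 read, the share of *SHH*-positive cells was 27.3 percentage points higher in NCs and that of *SMO*-positive cells 20.0 points lower (−20.0), and both kept their direction under all 13 alternatives (5 reads, which gave 23.0 points for *SHH*, thinning, 3 other definitions of NCs, no limits on cells, 1000 genes, each tag left out, WTA4, and tags A951 and A952 only, the last chosen after seeing the data). Leaving out each tag gave 14.8 to 30.3 points for *SHH*, lowest without A952, and −21.4 to −17.4 for *SMO*. WTA4 gave 16.4 for *SHH* and −38.7 for *SMO*. The number of members with a higher level, meaning a log2 ratio above 0, stayed at 2 except without A952, where *PTCH1* turned and 1 was left, so that leaving out each tag gave 1 to 2. Of all genes compared, 7326 of 11524 lay above 0 in WTA8 and 6305 of 11425 in WTA4. The 2 members were *SHH* and *PTCH1*, and *PTCH1* lay near 0, at 0.30 in WTA8 and 0.03 (−0.20 to 0.25) in WTA4. The ranges of log2 ratios that follow cover WTA8, its single tags and WTA4 as a whole, but not the single tags of WTA4. The log2 ratio of *SHH* ran from 3.40 within the 5 NCs of A953 to 7.83, and that of *SMO* from −4.31 to −1.38. That of *GLI2* ran from −2.14 to −0.73. It was under 2-fold with NCs defined by 5 summed reads of *KRT19* and *TBXT* or by 5 reads of either (−0.92). That of *PTCH1* ran from −2.98 within A953 to 0.80 as a mean over cells, and that of *GLI1* from −1.28 to 0.39. That of *HHIP* ran from −4.41 to 1.45, reversed within A953, and was −0.38 without A952. Within single tags of WTA4, some values lay beyond these ranges. *SMO* was at −0.79, under 2-fold, and *GLI2* at −3.35 within A953 of WTA4. *GLI2* was at −1.17 and *GLI1* at −1.41 within A954 of WTA4, the latter past 2-fold. Genes at least 2-fold higher in NCs numbered 2897, or 5050 without the limit on detection, and those lower 1370, or 2061 in WTA4. Leaving out each tag gave 2897 to 2968 and 1417 to 1959. No paired analysis was possible because the labels give no replicate numbers that pair samples and each library is a single sample. Values within each tag are given instead, and these tags are not replicates of a group. Depth limits *GLI1*, *GLI2* and *PTCH1*, read mostly 1 to 4 times per cell.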

Other observations

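In WTA4, where the tags A953 and A954 hold all NCs, the other cells of the same tags more often had *PTCH1*, but not *GLI1* or *HHIP*. At least 5 *PTCH1* reads were found in 5.69% and 6.43% of other cells with tags A951 and A952 and in 15.2% and 16.3% with A953 and A954. The median depth was 111000, 122998, 186536 and 158319 reads in that order. At 50000 reads per cell, at least 1 read was found in 11.3% (8.45 to 14.6), 15.6% (11.4 to 20.6), 21.4% (14.9 to 29.2) and 28.4% (20.2 to 37.9), so that the order of A951 and A952 below A953 and A954 stayed while neighbouring intervals overlapped. At 5 reads and full depth, *GLI1* was at 6.58%, 7.31%, 7.32% and 7.09% and *HHIP* at 22.4%, 18.4%, 25.6% and 20.6% in the order of the tags, and at 50000 reads per cell 1 read of *GLI1* was found in 27.6%, 28.0%, 23.6% and 27.5%. In WTA8, where A951 and A952 hold most NCs, the shares at 5 reads were 3.56% and 5.06%, as against 4.37% and 4.78% with A953 and A954. In WTA4 the summed superficial cartilage markers of the other cells were 18703, 13056, 878 and 1453 rpm in the order of the tags, and the part of the kind of cell in the *PTCH1* shares was not tested. *IHH* with at least 5 reads was found in 0.890% and 0.585% of other cells of A951 and A952 of WTA4 and in 3.05% and 2.13% of A953 and A954. What tissue each tag marks in WTA4 is not known here, and tag and tissue cannot be told apart.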
